A study of Mus musculus with 2 samples.

Results

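PD-1 expressing CD8 T cells are killer T cells with RNA of Pdcd1, the gene of the inhibitory receptor PD-1. In these data they numbered 367 cells in the KO library and 252 in the flox library, 619 of the 7400 cells that passed the filters. The cells were chosen by their UMIs (unique molecular identifiers, 1 per captured RNA molecule). A cell had to hold at least 1000 UMIs, 300 genes and less than 10% mitochondrial UMIs, at least 2 UMIs of Cd3d, Cd3e and Cd3g together, at least 1 of Cd8a and Cd8b1 together, none of Cd4, Cd79a and Klrg1, fewer than 5 of Lyz2, and at least 1 of Pdcd1. They are set against the CD8 T cells that met every other criterion and held no Pdcd1 UMI, called PD-1- here, which numbered 433 in the KO and 335 in the flox library.

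PD-1 is switched on when a T cell receptor binds its antigen and stays on where antigen persists. Its ligands PD-L1 (Cd274) and PD-L2 (Pdcd1lg2) make it recruit phosphatases to the receptor, which dampens the signal. The transcription factor TOX sustains this state in CD8 T cells under chronic stimulation, where PD-1 is joined by further inhibitory receptors such as CTLA-4, LAG-3, TIM-3 and TIGIT, the features together known as exhaustion. PD-1 is also found on resident memory T cells in healthy tissue. In the back of the eye, the pigment epithelium can itself carry PD-1 ligands and takes part in keeping T cell responses low.

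Both libraries came from mice injected intraperitoneally with NaIO3 (20 mg/kg), an oxidant that damages the retinal pigment epithelium (RPE), and each holds CD45+ white blood cells sorted from digested RPE and choroid. The KO library is labelled IL-17RA CKO, a conditional knockout of the IL-17 receptor subunit A, and the flox library IL-17ra fl, which carries the floxed allele without the deletion named. The labels do not name the cells that lost the gene, nor the number of mice per library, their age or sex, or the time after injection. With 1 library per group there is no replicate check, and no test or p-value is given. Every interval in the text is at 95% and covers counting error only, so differences between animals, sorts or libraries cannot be told apart from differences between genotypes.

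The groups differed little in depth and more in sex. The cells held 8111 UMIs (median) among PD-1+ and 8788 among PD-1- cells of KO, and 8882.5 among PD-1+ and 9514 among PD-1- cells of flox. Summed over cells this was 3173897 UMIs in PD-1+ and 4243350 in PD-1- cells of KO, and 2269935 in PD-1+ and 3530232 in PD-1- cells of flox. Both libraries hold cells of both sexes. Cells with UMIs of Xist and of no Y-linked gene, called female here, made up 24.3% of PD-1+ cells in KO against 74.6% in flox, and cells with Y-linked UMIs alone, called male, 36.5% in KO against 11.9% in flox. The main comparisons of KO with flox are therefore given within each sex as well. The KO matrix was written by Cell Ranger 7.0.1 and the flox matrix by version 4, so counting and genotype cannot be told apart either. Across the 2062 genes with the longest introns the median log2 ratio of KO over flox in PD-1+ cells was -0.04, against 0.06 across the 2062 with the shortest. The libraries shared 4 barcodes of at least 1000 UMIs.

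The label is set beside its markers Pdcd1, Cd8a, Cd8b1 and Tox. All but Tox took part in the choice of cells. The cells and lists were chosen with earlier results of these data known, so the values describe the label and do not test it. Levels are given as CPM, the UMIs of a gene per 1000000 UMIs summed over the cells of a group. Tox, on chromosome 4 (bases 6686353 to 6991557 of GRCm38, protein-coding), took no part in the choice of cells. Tox stood at 906 CPM in PD-1+ and 186 CPM in PD-1- cells of KO, 4.87-fold higher (4.5 to 5.27), and at 957 CPM in PD-1+ and 276 CPM in PD-1- cells of flox, 3.47-fold higher (3.22 to 3.75). Tox UMIs were found in 92.4% of PD-1+ and 53.3% of PD-1- cells in KO, and in 92.5% of PD-1+ and 68.4% of PD-1- cells in flox. Markers of some other cell types were low. Summed over 4 neutrophil genes they reached at most 1.76 CPM in PD-1+ cells, over 5 CD4 T cell genes 47.9 CPM in KO and 11.0 CPM in flox, and over 6 photoreceptor and RPE genes at most 7.25 CPM. The CD4 T cell, monocyte and B cell lists include Cd4, Lyz2 and Cd79a, which took part in the choice of cells. Part of those sums was therefore set in advance. The 5 gamma-delta T cell genes summed to 244 CPM in PD-1+ and 57 CPM in PD-1- cells of KO, and 182 CPM in PD-1+ and 77 CPM in PD-1- cells of flox. In PD-1+ cells most of this was Tcrg-C2, and Sox13 was at 0 in all 4 groups. In PD-1+ cells the 5 NK cell genes summed to 157 CPM in KO and 220.3 CPM in flox, most of it Eomes, which CD8 T cells also express. The 6 B cell genes summed to 78.1 CPM in KO and 90.3 CPM in flox. The 7 monocyte genes summed to 119 CPM in KO and 264 CPM in flox, and the 6 dendritic cell genes to 23.6 CPM in KO and 151 CPM in flox. One flox PD-1+ cell held 63.1% of that group's H2-Aa UMIs and 5 cells held 91.8%, and the part of other cells' RNA in the results was not tested.

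Pdcd1 itself, on chromosome 1 (bases 94038305 to 94052553 of GRCm38, protein-coding), chose the cells, so its values are a description. The share of gated CD8 T cells with a Pdcd1 UMI was 45.9% (42.4 to 49.4) in KO and 42.9% (38.9 to 47) in flox, a difference of 2.94 (-2.35 to 8.2) percentage points. The difference changed sign with sex: female cells gave 37.7% in KO and 43.9% in flox, and male cells 41.6% in KO and 35.3% in flox. With Klrg1+ cells let in, the difference was -3.44 points. Of all passing cells, PD-1+ CD8 T cells were 9.22% (8.34 to 10.2) in KO and 7.37% (6.52 to 8.3) in flox, 1.84 (0.581 to 3.1) points apart. Unlike the share of gated cells, this difference was not recomputed by sex or with other choices of cells. The shares of gated CD8 T cells with a Pdcd1 UMI were far above those of B cells and monocytes. A Pdcd1 UMI was found in 0.115% of B cells in KO and 0.181% in flox, at median depths of 6538 UMIs in KO and 6196 UMIs in flox, and in 1.08% of monocytes in KO and 1.4% in flox.

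The libraries differed more in how much Pdcd1 a PD-1+ cell held than in how many such cells there were. The median was 4 UMIs per PD-1+ cell in KO and 2 in flox, with maxima of 23 in KO and 21 in flox. Cells with 10 or more UMIs numbered 48 in KO and 17 in flox, and 67% of PD-1+ cells in KO and 47.6% in flox held at least 3. Summed over PD-1+ cells, Pdcd1 stood at 583 CPM in KO and 382 CPM in flox. The Klrg1+ CD8 T cells that the choice leaves out, a short-lived effector type, went the other way: 11.1% of 190 in KO and 38.6% of 44 in flox held Pdcd1.

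**Figure D1:**
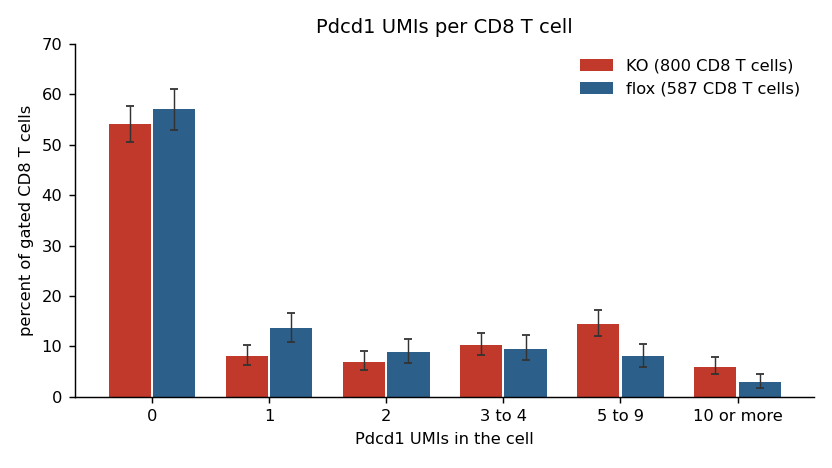
Percent of gated CD8 T cells (y axis) by the number of Pdcd1 UMIs in the cell (x axis), KO in red (800 cells) and flox in blue (587 cells), with 95% Clopper-Pearson intervals that cover counting error only. Cells with 5 to 9 UMIs made up 14.5% in KO and 8.01% in flox, while cells with 1 UMI made up 8.12% in KO and 13.6% in flox.

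The first comparison set PD-1+ against PD-1- cells within each library. Of the genes with at least 50 UMIs in both groups together, 445 of 8866 were at least 2-fold higher (5.02%) and 247 at least 2-fold lower (2.79%) in KO, and 227 of 8186 higher (2.77%) and 186 lower (2.27%) in flox. By any amount, 68.2% of these genes were higher in PD-1+ cells of KO and 65.7% in flox. The contrast is drawn by Pdcd1, so the values below describe what these cells hold besides it, and the libraries stand side by side.

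The other inhibitory receptors were higher in PD-1+ cells and had the highest median of the 17 lists in KO. Of 14 receptors besides Pdcd1, 9 were at least 2-fold higher in PD-1+ cells of KO and 5 in flox, beside 5.02% of all genes in KO and 2.77% in flox. The median log2 ratio was 1.51 in KO beside 0.16 over all genes, and 0.77 in flox beside 0.14. In male flox cells 3 of the receptors had enough UMIs, with a median of -0.26. Ctla4 encodes CTLA-4, which competes with CD28 for its ligands on antigen presenting cells. Ctla4 stood at 604 CPM in PD-1+ and 61.5 CPM in PD-1- cells of KO, 9.81-fold higher (8.62 to 11.2), and at 289.9 CPM in PD-1+ and 104 CPM in PD-1- cells of flox, 2.78-fold higher (2.44 to 3.17). The PD-1- cells of flox held more Ctla4 than those of KO, and the PD-1+ cells less. Lag3 encodes a receptor for MHC class II that blocks activation. Lag3 stood at 76.2 CPM in PD-1+ and 8.72 CPM in PD-1- cells of KO, 8.74-fold higher (6.17 to 12.7), and at 97.8 CPM in PD-1+ and 17.6 CPM in PD-1- cells of flox, 5.57-fold higher (4.18 to 7.5). Tigit, which competes for CD155, was also higher in PD-1+ than in PD-1- cells of both libraries. Tigit stood at 103 CPM in PD-1+ and 21 CPM in PD-1- cells of KO, 4.93-fold higher (3.89 to 6.3), and at 70.5 CPM in PD-1+ and 19.8 CPM in PD-1- cells of flox, 3.55-fold higher (2.67 to 4.78). Havcr2 encodes TIM-3, a receptor of terminally exhausted cells, and was scarce in all 4 groups. Havcr2 stood at 38.1 CPM in PD-1+ and 5.42 CPM in PD-1- cells of KO, 7.03-fold higher (4.48 to 11.5), and at 32.6 CPM in PD-1+ and 1.98 CPM in PD-1- cells of flox, 16.4-fold higher (7.59 to 42.3). Cd200r1, the receptor for CD200, stood at 65.2 CPM in PD-1+ and 5.18 CPM in PD-1- cells of KO, and at 24.2 CPM in PD-1+ and 4.53 CPM in PD-1- cells of flox. The male cells of flox held 0 Cd200r1 UMIs in PD-1+ and 1 in PD-1- cells, a log2 ratio of -0.50. Entpd1, the ectonucleotidase CD39, was 2.96 times as high in PD-1+ as in PD-1- cells of KO and 1.73 times in flox. Btla, a receptor also found on naive T cells, was the receptor lower by more than 2-fold, 2.52-fold (1.8 to 3.58) lower in KO and 2.65-fold (1.87 to 3.85) lower in flox. By any amount 3 of the 14 were lower in KO and 4 in flox.

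Some cells held more than 1 of these receptors. Whether they met more often than the share of cells with each receptor would give was not tested. With each cell thinned to 2000 UMIs, 63.1% of PD-1+ and 19.7% of PD-1- cells in KO held a UMI of at least 1 of Ctla4, Lag3, Havcr2 and Tigit, and 45.8% of PD-1+ and 19.3% of PD-1- cells in flox. At least 2 of the 4 were found in 21.9% of PD-1+ and 1.64% of PD-1- cells in KO, and in 14.9% of PD-1+ and 3.31% of PD-1- cells in flox. Without thinning these shares were 57.2% of PD-1+ and 8.31% of PD-1- cells in KO, and 48.4% of PD-1+ and 10.7% of PD-1- cells in flox. Thinning left out 7 cells of each group in KO and 3 of each in flox.

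Among the transcription factors linked to exhaustion, 15 of 16 measured were higher in PD-1+ cells of KO and 14 of 16 in flox, beside 68.2% of all genes in KO and 65.7% in flox. By at least 2-fold 8 were higher in KO and 4 in flox, beside 5.02% of all genes in KO and 2.77% in flox. Nr4a2, an orphan nuclear receptor induced by T cell receptor signals, stood at 724 CPM in PD-1+ and 297 CPM in PD-1- cells of KO, and at 609 CPM in PD-1+ and 282 CPM in PD-1- cells of flox. Bhlhe40, a repressor that resident T cells use, was 2.78 times (2.46 to 3.15) as high in KO and 2.99 times (2.58 to 3.48) as high in flox. Maf, which drives Il10 and inhibitory receptors, was 2.32 times (1.85 to 2.92) as high in KO and 3.35 times (2.8 to 4.01) as high in flox. Rbpj, the DNA-binding partner of Notch, was 3.51 times (3.09 to 4) as high in KO and 1.71 times (1.44 to 2.03) as high in flox. Eomes, a T-box factor of memory and exhausted cells, differed by less: 1.67 times (1.41 to 1.97) as high in KO and 1.52 times (1.32 to 1.74) in flox.

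The naive and stem-like programme had the lowest median of the 17 lists in both libraries. Of 18 genes, 15 were at least 2-fold lower in PD-1+ cells of KO and 13 in flox, with medians of -2.34 in KO and -1.29 in flox. Over all genes the share at least 2-fold lower was 2.79% in KO and 2.27% in flox. Satb1, a chromatin organiser that silences Pdcd1 in mouse T cells, was among the lowest. Satb1 stood at 41 CPM in PD-1+ and 459 CPM in PD-1- cells of KO, 11.2-fold lower (9.37 to 13.5), and at 26.9 CPM in PD-1+ and 561 CPM in PD-1- cells of flox, 20.9-fold lower (16.2 to 27.4). The lymph node homing receptor CCR7 followed. Ccr7 stood at 14.8 CPM in PD-1+ and 154 CPM in PD-1- cells of KO, 10.4-fold lower (7.74 to 14.3), and at 8.37 CPM in PD-1+ and 113 CPM in PD-1- cells of flox, 13.5-fold lower (8.53 to 22.7). Tcf7 encodes TCF-1, which keeps memory and stem-like exhausted cells. Tcf7 stood at 84.8 CPM in PD-1+ and 272 CPM in PD-1- cells of KO, 3.21-fold lower (2.81 to 3.68), and at 107 CPM in PD-1+ and 226 CPM in PD-1- cells of flox, 2.1-fold lower (1.82 to 2.44). Tcf7 was still detected in 32.4% of PD-1+ cells in KO and 40.9% in flox. Il7r, the survival receptor of naive and memory cells, stood at 195 CPM in PD-1+ and 664 CPM in PD-1- cells of KO, and at 245 CPM in PD-1+ and 578 CPM in PD-1- cells of flox. Bcl2, which blocks cell death, was close to level: 849 CPM in PD-1+ and 708 CPM in PD-1- cells of KO, and 831 CPM in PD-1+ and 828 CPM in PD-1- cells of flox. Slamf6, a surface marker of stem-like cells, was 2.79-fold (2.29 to 3.41) lower in KO, while in flox it stood at 91.6 CPM in PD-1+ and 93.5 CPM in PD-1- cells.

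By list median, genes of tissue residency and of egress lay on opposite sides (1.02 and -1.77 in KO, 0.61 and -0.82 in flox). Of 15 residency genes measured in KO 9 were at least 2-fold higher, and of 14 in flox 5. The share over all genes was 5.02% in KO and 2.77% in flox. By any amount 14 of the 15 were higher in KO. In flox 9 of the 14 were higher, near the 65.7% of all genes there. All 13 egress genes measured in KO were lower, 9 by at least 2-fold. Of 12 in flox 9 were lower, 5 by at least 2-fold, while 3 were higher, 1 by at least 2-fold. Of all genes, 2.79% in KO and 2.27% in flox were at least 2-fold lower. Cxcr6, a chemokine receptor of resident CD8 T cells, was past 2-fold in both libraries. Cxcr6 stood at 564 CPM in PD-1+ and 156 CPM in PD-1- cells of KO, 3.62-fold higher (3.31 to 3.97), and at 254 CPM in PD-1+ and 117 CPM in PD-1- cells of flox, 2.17-fold higher (1.91 to 2.47). Rgs1, which damps chemokine receptor signals, was 3.12 times (2.87 to 3.41) as high in KO and 2.48 times (2.22 to 2.76) in flox. The integrin genes did not share one pattern. Itga1 (CD49a, which binds collagen) stood at 236 CPM in PD-1+ and 94.5 CPM in PD-1- cells of KO, and at 79.3 CPM in PD-1+ and 61.2 CPM in PD-1- cells of flox. Itgae (CD103, which binds E-cadherin) stood at 30.9 CPM in PD-1+ and 31.8 CPM in PD-1- cells of KO, and at 15 CPM in PD-1+ and 23.5 CPM in PD-1- cells of flox. Of the egress genes, S1pr1, the receptor that leads T cells out of tissue, was 6.87-fold (5.62 to 8.49) lower in KO and 2.08-fold (1.8 to 2.41) lower in flox. Klf2, the transcription factor that drives it, was 7.11-fold (6.32 to 8.03) lower in KO and 1.9-fold (1.72 to 2.09) lower in flox.

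Cytotoxic granule genes were higher by any amount for 11 of 15 in KO and 14 of 15 in flox, and cytokine and chemokine genes for 11 of 12 in KO and 6 of 10 in flox, beside 68.2% of all genes in KO and 65.7% in flox. Granzyme K (Gzmk), a granule protease of memory-like cells, was higher in both. Gzmk stood at 259.9 CPM in PD-1+ and 105 CPM in PD-1- cells of KO, 2.47-fold higher (2.2 to 2.78), and at 373 CPM in PD-1+ and 167 CPM in PD-1- cells of flox, 2.23-fold higher (2.01 to 2.49). Granzyme B (Gzmb), the protease that starts target cell death, stood at 114 CPM in PD-1+ and 138 CPM in PD-1- cells of KO, against 245 CPM in PD-1+ and 72.2 CPM in PD-1- cells of flox. Granzyme A (Gzma) was 3.39-fold (3.02 to 3.82) lower in PD-1+ cells of KO and 1.72 times (1.45 to 2.06) as high as in PD-1- cells in flox, but 5 cells held 64.6% of its UMIs in PD-1+ cells of KO and 50% in PD-1- cells of flox. Nkg7, a granule membrane protein, was 1.91 times (1.84 to 1.98) as high in KO and 2.01 times (1.93 to 2.09) in flox. Ifng was 2.51 times (2.24 to 2.82) as high in KO and 1.84 times (1.57 to 2.17) in flox, and Ccl5, the most abundant chemokine of these cells, 1.39 times (1.37 to 1.42) as high in KO and 2.12 times (2.09 to 2.16) in flox. Xcl1, which attracts cross-presenting dendritic cells, was 4.08 times (3.71 to 4.5) as high in KO and 1.49 times (1.31 to 1.68) in flox. Ccl3, a chemokine that draws monocytes and T cells, was 5.25 times (3.91 to 7.16) as high in KO and 1.97-fold (1.49 to 2.63) lower in flox, where 1 PD-1- cell held 61.5% of the UMIs of its group. Without the highest cell of each group the log2 ratio of Ccl3 in flox was 0.10 instead of -0.97, and that of Ccl4 0.67 instead of -0.53.

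Of the 9 genes of PD-1 ligands, their relatives and phosphatases, 4 were at least 2-fold higher in PD-1+ cells of KO and 2 in flox. The share of all genes past 2-fold was 5.02% in KO and 2.77% in flox. By any amount, all 9 were higher in KO and 7 in flox, beside 68.2% of all genes in KO and 65.7% in flox. Ptpn11, the phosphatase SHP-2 that PD-1 recruits, was 1.93 times (1.58 to 2.36) as high in KO and 1.68 times (1.35 to 2.1) in flox. Cd274, the ligand PD-L1, was 1.69 times (1.37 to 2.08) as high in KO and 1.46 times (1.22 to 1.75) in flox. Cd80, a ligand of CTLA-4, was 4.68 times (2.65 to 8.74) as high in KO and 3.84 times (2.06 to 7.52) in flox at levels of 17.6 CPM in PD-1+ cells of KO and 16.3 CPM in those of flox. Cd86, also a CTLA-4 ligand, was 2.21 times (1.6 to 3.09) as high in KO and 3.67 times (2.64 to 5.16) in flox. Dendritic cells and monocytes also express these ligands, and the part of their RNA in these values was not tested. Tnfrsf9 (4-1BB), a co-stimulatory receptor of recently activated T cells, was 3.27 times (2.66 to 4.03) as high in KO and 2.53 times (2 to 3.21) in flox. Il10ra was 2.87 times (2.4 to 3.43) as high in KO and 2.8 times (2.33 to 3.39) in flox, while Il12rb2, the signalling chain for interleukin-12, was 3.49-fold (2.71 to 4.54) lower in KO and 9.46-fold (5.79 to 16.5) lower in flox.

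Genes induced by type I interferon were higher too, 17 of 17 measured in KO and 18 of 18 in flox, beside 68.2% of all genes in KO and 65.7% in flox. In each library 8 were past 2-fold, beside 5.02% of all genes in KO and 2.77% in flox. Ifi27l2a stood at 1040.4 CPM in PD-1+ and 238 CPM in PD-1- cells of KO, 4.38-fold higher (4.08 to 4.7), and at 1365 CPM in PD-1+ and 450.1 CPM in PD-1- cells of flox, 3.03-fold higher (2.85 to 3.22). Rsad2 (viperin, an antiviral enzyme) was 3.51 times (2.16 to 5.87) as high in KO and 3.97 times (3.09 to 5.13) in flox. In female cells of KO the list's median was 0.07 and Ifit1 and Rsad2 were lower in PD-1+ cells, with 6 Ifit1 UMIs in 89 PD-1+ cells and 34 in 147 PD-1- cells. The median was 1.12 in male cells of KO, 0.81 in female and 1.29 in male cells of flox. Proliferation genes showed no common direction, with medians of 0.52 in KO and -0.29 in flox. Mki67, a marker of dividing cells, was at 37.8 CPM in PD-1+ and 18.6 CPM in PD-1- cells of KO, and at 16.3 CPM in PD-1+ and 18.1 CPM in PD-1- cells of flox. Il17ra, the gene targeted in the KO mice, was at 57 CPM in PD-1+ and 93.1 CPM in PD-1- cells of KO, and at 53.3 CPM in PD-1+ and 78.7 CPM in PD-1- cells of flox. The labels name no deleted exon or cell type, and 3' reads can lie outside a deletion, so these levels check nothing about the knockout in T cells.

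**Figure D2:**
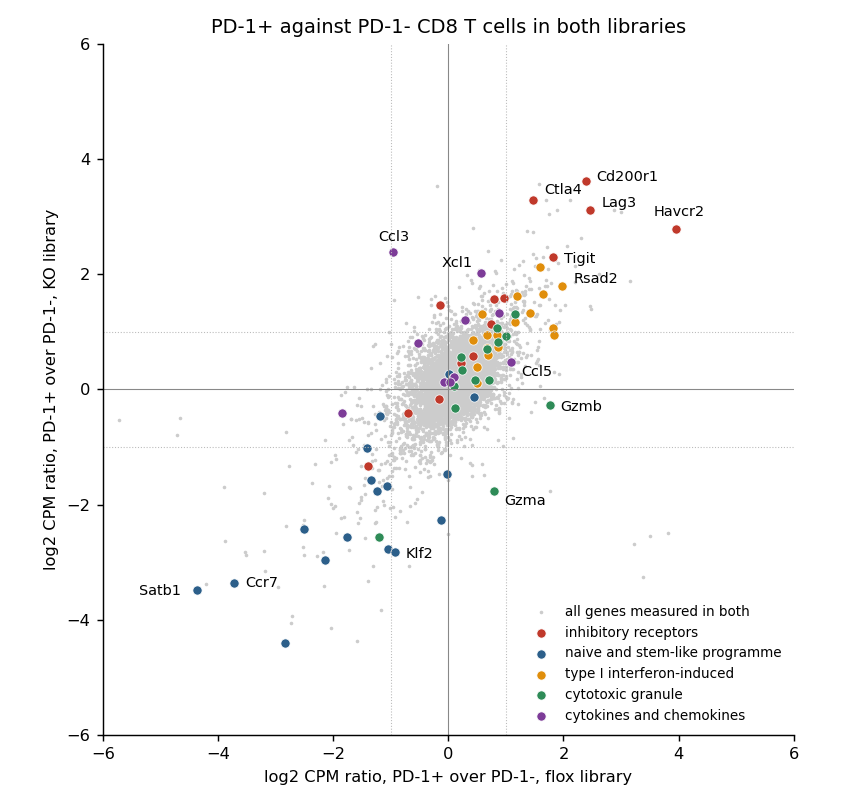
Each point is a gene with at least 50 UMIs in both comparisons, at its log2 CPM ratio of PD-1+ over PD-1- cells in flox (x axis) and KO (y axis), with 5 gene lists in colour and dotted lines at 2-fold. Ctla4, Lag3, Tigit, Cd200r1 and Havcr2 lie at the upper right and Satb1 and Ccr7 at the lower left, while Gzma, Gzmb and Ccl3 have opposite signs in the libraries.

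Beyond the lists, a size rule named genes that differed in the same direction in both libraries. It asks for at least 50 UMIs in the groups together, at least 50 CPM and detection in at least 10% of cells in the higher group, and an interval beyond 1.5-fold in each library. It was met by 71 genes higher and 46 lower in PD-1+ cells, and the 12 with the largest smaller ratio were named in each direction. Higher, beside Lag3, Tigit, Tox and Ifi27l2a, were 8 more. Rgs16, which turns off G protein signals, was 8.55 times (6.29 to 11.8) as high in KO and 8.12 times (5.79 to 11.6) in flox, but in flox the 30 male PD-1+ cells held 3 of its UMIs and the log2 ratio was -0.36. Mir155hg, the host transcript of miR-155, was 4.76 times (3.6 to 6.39) as high in KO and 3.65 times (2.62 to 5.15) in flox. Nrp1, neuropilin-1, a co-receptor for semaphorins and VEGF, was 4.95 times (3.89 to 6.35) as high in KO and 3.13 times (2.42 to 4.07) in flox. The others were Hip1 (4.28 in KO, 3.31 in flox), which binds clathrin, the calcium-binding S100a4 (3.74 in KO, 3.25 in flox), Ptms (3.48 in KO, 3.22 in flox), the phosphatase Ptpn13 (3.17 in KO, 3.05 in flox) and Ttc39c (3.4 in KO, 3 in flox). Lower, beside Satb1, Ccr7 and Dapl1, was Lef1, a partner of TCF-1 in naive cells, 7.84-fold (6.79 to 9.1) in KO and 4.44-fold (3.84 to 5.15) in flox. The sialic acid enzymes St6gal1 and Cmah were also among them. St6gal1 was 10.6-fold (6.6 to 18.2) lower in KO and 20-fold (9.04 to 55.3) lower in flox, and Cmah 10.8-fold (8.42 to 14) lower in KO and 4.49-fold (3.61 to 5.62) lower in flox. The Src-family kinase Yes1 was 7.22-fold (4.81 to 11.3) lower in KO and 11.9-fold (7.59 to 19.7) lower in flox. Fam241a, Sh3bp5, Nsg2 and Neto2 were also lower, between 3.99-fold (Neto2) and 7.93-fold (Nsg2) lower in KO and between 4.18-fold (Neto2) and 9.35-fold (Fam241a) lower in flox.

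RNA of a gamma chain of the other type of T cell receptor was also more frequent. Tcrg-C2, a constant gene of the gamma locus, was at 219.9 CPM in PD-1+ and 25.2 CPM in PD-1- cells of KO, and at 175 CPM in PD-1+ and 23.8 CPM in PD-1- cells of flox. It was detected in 54.2% of PD-1+ and 11.8% of PD-1- cells in KO, and in 42.9% of PD-1+ and 13.1% of PD-1- cells in flox. Trgv2, a variable gene of this locus chosen after its values were seen, was 6.23 times (5.18 to 7.54) as high in KO and 4.94 times (4.05 to 6.06) in flox. Trdc, the delta constant gene that defines gamma-delta T cells, was at 10.7 CPM in PD-1+ and 17.2 CPM in PD-1- cells of KO, and at 1.32 CPM in PD-1+ and 12.2 CPM in PD-1- cells of flox. The alpha constant gene Trac was at 549 CPM in PD-1+ cells of KO and 478 CPM in those of flox. The gamma constant genes are near-identical copies, so the split of reads among them is uncertain.

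How the cells varied with their Pdcd1 content was read from cells with 1, 2 and 3 or more Pdcd1 UMIs. Cells with 1 UMI, just inside the threshold, already differed from those with 0, just outside. Tox stood at 186, 535, 669 and 1037 CPM at 0, 1, 2 and 3 or more Pdcd1 UMIs in KO, and at 276, 779, 921 and 1085 CPM in flox. Ctla4 stood at 61.5, 208, 471 and 719 CPM in KO, and at 104, 239, 245 and 340.4 CPM in flox. In KO both were higher at every step, and in flox the intervals of Ctla4 at 1 and 2 UMIs overlapped. Il7r stood at 664, 285, 243 and 165 CPM in KO, and at 578, 349.5, 214 and 191 CPM in flox. The widest step in Il7r lay between 0 and 1 UMI in both libraries. Tcf7 stood at 272, 139, 107 and 68 CPM in KO, and at 226, 98, 113 and 111 CPM in flox, where the classes of 1, 2 and 3 or more had overlapping intervals. Gzmb stood at 166, 89.9 and 108 CPM at 1, 2 and 3 or more UMIs in KO, in no order, and fell from 303 to 236 and 213 CPM in flox. Its level at 0 UMIs, given above for PD-1- cells, lay within this range in KO and below it in flox. The median depth of these classes was 7444, 7858 and 8437 UMIs in KO and 8397.5, 8815 and 9220.5 UMIs in flox, so the classes also differed in depth.

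**Figure D3:**
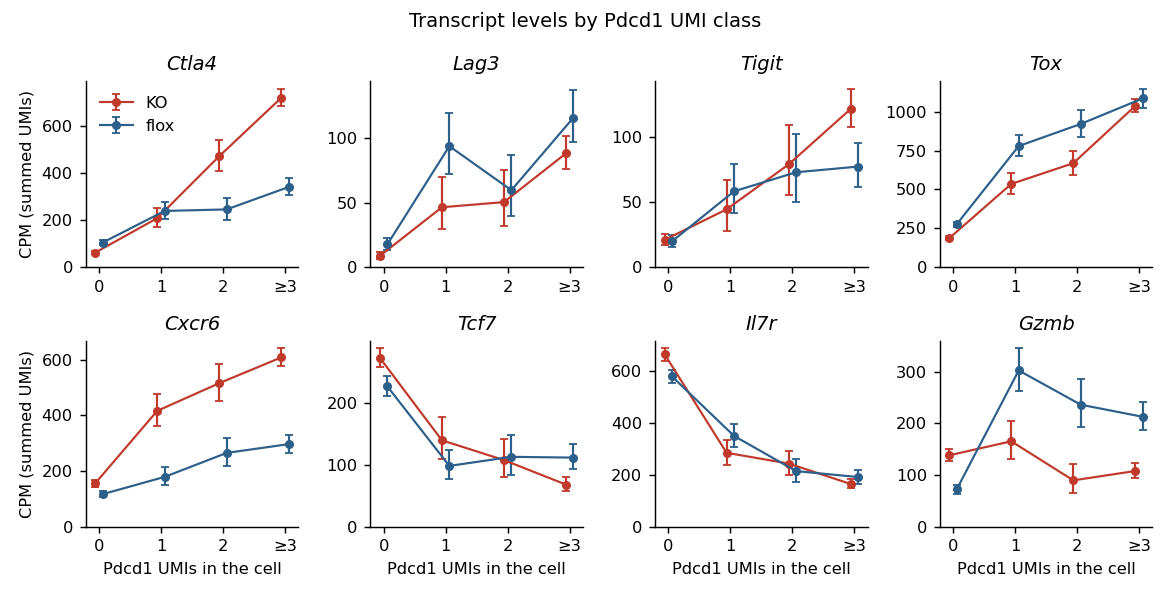
CPM from summed UMIs (y axis) of 8 genes in cells with 0, 1, 2 and 3 or more Pdcd1 UMIs (x axis), KO in red and flox in blue, with exact Poisson intervals. Tox and Cxcr6 climb with the class in both libraries, Ctla4 reaches 719 CPM in KO and 340.4 CPM in flox at 3 or more UMIs, and Il7r and Tcf7 are highest at 0.

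The second comparison set KO against flox within PD-1+ cells, the contrast of genotypes that the study was built on. Of 8247 genes, 173 were at least 2-fold higher (2.1%) and 118 at least 2-fold lower (1.43%) in KO. Among PD-1- cells 64 of 8792 were higher (0.728%) and 77 lower (0.876%). By any amount, 53.6% of genes were higher in KO among PD-1+ and 49.3% among PD-1- cells. The size rule was met by 46 genes higher and 69 lower in PD-1+ cells of KO, with 12 named in each direction.

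Interferon-induced genes were lower in KO. Of 18 genes induced by type I interferon none was higher and 13 were at least 2-fold lower in PD-1+ cells, with a median of -1.32 (log2) beside 0.03 over all genes. PD-1- cells gave a median of -1.34 and 11 past 2-fold, so the difference was not particular to PD-1+ cells. Of all genes, 1.43% were at least 2-fold lower in PD-1+ and 0.876% in PD-1- cells. Ifit1, which binds foreign RNA caps, stood at 50.4 CPM (42.9 to 58.9) in KO and 196 CPM (179 to 216) in flox. Isg15, a ubiquitin-like modifier, stood at 102 CPM (91.6 to 114) in KO and 335 CPM (311 to 359) in flox. Rsad2 was 5.04-fold (3.8 to 6.77) lower and Slfn5 6.08-fold (4.67 to 8.02) lower in KO. Ifit3 (3.83 times lower), its copy Ifit3b (6.23 times) and Iigp1 (3.78 times), a GTPase that attacks parasite vacuoles, also met the size rule, as did the unnamed transcript A330040F15Rik (3.34 times). Reads of Ifit3 and Ifit3b could be split between these near-identical genes. Isg15 was 0.204 times as high in female and 0.126 times in male cells, Rsad2 0.142 times in female and 0.0369 times in male cells, and Slfn5 0.176 times in female and 0.066 times in male cells. The list's median was -1.14 in female PD-1+ cells, 89 of KO and 188 of flox, and -2.25 in male ones, 134 of KO and 30 of flox. In the 30 male flox cells Ifit1 alone had 252 UMIs, against 78 in the 134 male KO cells. The 15 measured genes induced by interferon-gamma had a median of -0.60 in PD-1+ and -0.28 in PD-1- cells.

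Cytokine and chemokine genes were higher in PD-1+ cells of KO, 6 of 11 measured by at least 2-fold, with a median of 1.14 against -0.03 in PD-1- cells. Over all genes in PD-1+ cells 2.1% were at least 2-fold higher and the median was 0.03. The list's median was 0.80 in female and 0.66 in male PD-1+ cells. Xcl1 stood at 539.7 CPM (514 to 566) in KO and 216 CPM (197 to 236) in flox. Within female cells it was 4.53 times as high in KO as in flox, and within male cells 1.95 times. Ccl4, a chemokine that draws T cells and monocytes, was 2.21 times (2.03 to 2.41) as high, 2.48 times in female and 2.91 times in male cells. Tnf was 2.48 times (1.96 to 3.17) as high, but 4.05 times in female and 1.03 times in male cells. Ifng was 1.9 times (1.67 to 2.16) as high, 1.74 times in female and 1.56 times in male cells. Ccl5 went the other way at 9274 CPM in KO and 14377 CPM in flox, but turned with sex, at 0.69 times the flox level in female and 1.24 times in male cells. Cytotoxic granule genes as a list were level, with a median of -0.13, although Gzmb was 2.15-fold (1.88 to 2.46) lower in KO, at 0.53 times the flox level in female and 0.668 times in male cells.

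NK-type receptors were also higher in PD-1+ cells of KO, with a median of 0.95 over 9 genes and 4 past 2-fold, against a median of 0.08 in PD-1- cells. Over all genes in PD-1+ cells 2.1% were at least 2-fold higher. The list's median was 0.93 in female and 0.84 in male PD-1+ cells. Klrk1 encodes NKG2D, which recognises stress ligands. It stood at 499 CPM (474 to 524) in KO and 220.3 CPM (201 to 240.5) in flox, and was 3.12 times as high in female and 1.77 times in male cells. Klrc1, the inhibitory receptor NKG2A, was 2.39 times (2.05 to 2.79) as high in all cells but 0.825 times in female and 1.91 times in male cells. Klre1 was 2.62 times (2.08 to 3.33) as high, 7.23 times in female and 7.39 times in male cells, where flox held 2 UMIs. The Klrc genes are close copies of each other, so their reads may be split.

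The residency genes Itga1 and Cxcr6 were higher in KO in both sexes. Itga1 was 2.98 times (2.53 to 3.52) as high, 3.4 times in female and 1.67 times in male cells, and Cxcr6 2.22 times (2.02 to 2.45) as high, 2.07 times in female and 2.96 times in male cells. S1pr1 was 3.28-fold (2.6 to 4.16) lower and Klf2 2.55-fold (2.22 to 2.95) lower in KO. S1pr1 was at 0.302 times the flox level in female and 0.386 times in male cells, and Klf2 at 0.64 times in female and 0.358 times in male cells. Ctla4 did not keep its direction: it was 2.08 times (1.91 to 2.28) as high in all PD-1+ cells of KO but 0.791 times in female and 1.62 times in male cells. Tox was 0.946 times (0.895 to 1) as high, 0.831 times in female and 1.57 times in male cells. Maf, at 67.7 CPM in KO and 175 CPM in flox, and Eomes, at 104 CPM in KO and 184 CPM in flox, were lower. Maf was at 0.496 times the flox level in female and 0.677 times in male cells, and Eomes at 0.913 times in female and 0.671 times in male cells.

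The size rule named the following genes as well. Higher in PD-1+ cells of KO were Sema6d, a transmembrane semaphorin (75.9 CPM in KO, 8.81 CPM in flox), and Nrn1, the membrane-anchored neuritin (64.6 CPM in KO, 7.93 CPM in flox), besides the unnamed transcript 2900026A02Rik. Sema6d was 3.7 times as high in female cells and had 52 UMIs in male KO against 0 in male flox cells, and Nrn1 was 5.57 times as high in female cells and had 38 UMIs in male KO against 1 in male flox cells. Nr3c2, the mineralocorticoid receptor, was 3.77 times (2.69 to 5.4) as high in all cells and 1.1 times in female cells. Ier5l was 3.63 times (3.21 to 4.12) as high, Fgl2, a fibrinogen-like immune regulator, 3.09 times (2.56 to 3.76) as high and Cd200r1 2.69 times (1.99 to 3.69) as high. Ier5l was 1.88 times as high in female and 4.8 times in male cells, and Fgl2 2.46 times in female and 1.59 times in male cells. Cd200r1 was 1.71 times as high in female cells and had 67 UMIs in male KO against 0 in male flox cells. Hspa1b, an inducible heat shock protein with a near-identical copy in Hspa1a, was 3.44 times (2.42 to 5.02) as high in all cells but 23.7 times in female and 0.442 times in male cells. Lower were Rap1gap2, a brake on the adhesion GTPase Rap1, at 12.9 CPM in KO and 72.7 CPM in flox, and Cx3cr1, the fractalkine receptor of effector cells, at 18.3 CPM in KO and 72.7 CPM in flox. Rap1gap2 was at 0.303 times the flox level in female and 0.225 times in male cells. Cx3cr1 was at 0.377 times the flox level in female cells but 1.66 times in male ones, from 26 UMIs in KO and 4 in flox. The MHC class II genes H2-Aa, H2-Eb1 and Cd74, which belong to antigen presenting cells, were 9.53, 11.4 and 8.96 times lower in KO. Their top cell held 63.1%, 59.2% and 69.4% of their UMIs in flox PD-1+ cells, and the part of other cells' RNA in these genes was not tested.

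**Figure D4:**
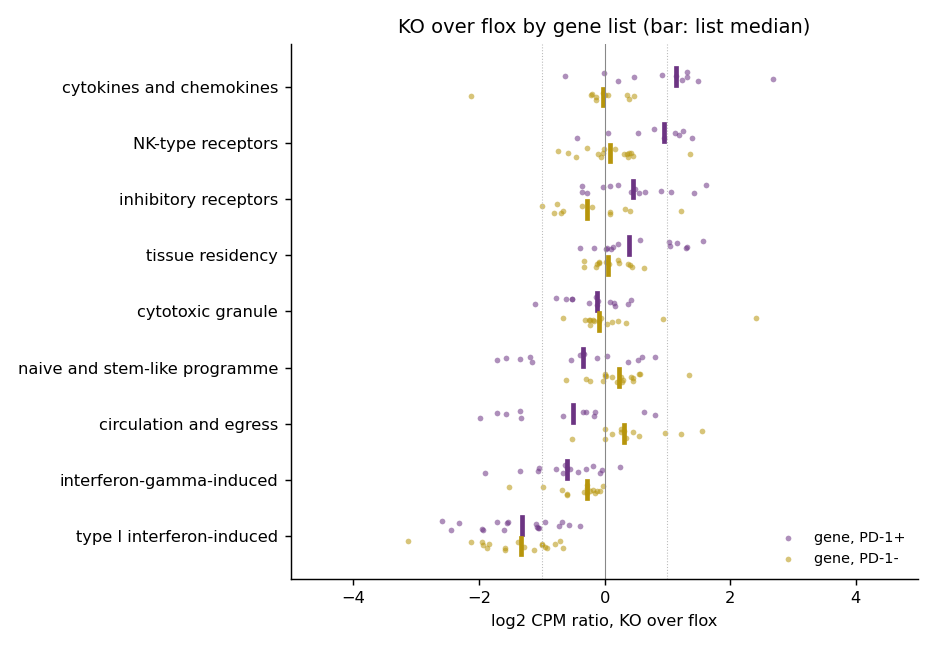
Log2 CPM ratios of KO over flox (x axis) for the genes of 9 lists (rows), in PD-1+ cells (purple, upper) and PD-1- cells (gold, lower), with a bar at each list's median and dotted lines at 2-fold. The type I interferon medians are -1.32 in PD-1+ and -1.34 in PD-1- cells, while the cytokine medians are 1.14 in PD-1+ and -0.03 in PD-1- cells.

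The daughters of a T cell keep the variable (V) genes of its receptor. Cells of unrelated descent can carry the same V gene, so V gene counts do not identify clones. The 3' reads catch them in part of the cells: a Trav UMI was found in 48% of PD-1+ cells in KO and 24.2% in flox. Among PD-1+ cells of KO the most frequent was Trav21-dv12, in 56 of 367 cells (15.3%), against 3 of 433 PD-1- cells in KO, 1 of 252 PD-1+ and 2 of 335 PD-1- cells in flox. Next were Trav3-3 in 27 and Trav16n in 24 PD-1+ cells of KO, and, of the beta chain, Trbv12-2 in 35, Trbv3 in 17 and Trbv1 in 10. Some were found together. Of the 56 cells with Trav21-dv12, 16 also had Trbv12-2, 13 had Trav3-3 and none had Trbv3 or Trav16n. In PD-1+ cells of flox the leaders were Trbv20 (23 cells), Trbv12-2 (15) and Trbv3 (13), with Trav16n (8), Trav3-3 (7) and Trav6-7-dv9 (7) of the alpha chain. Trbv20 was in 15 PD-1- cells of flox and 2 PD-1+ cells of KO. V genes are a family of close copies, so reads may be split among them.

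In KO the V genes went with the sex-linked transcripts. Of the 56 PD-1+ KO cells with Trav21-dv12, 54 held UMIs of neither Xist nor a Y-linked gene, though their median depth was 8288.5 UMIs. The other 2 held Y-linked UMIs. The same was true of 25 of 27 cells with Trav3-3 and 26 of 35 with Trbv12-2. Cells with neither made up 38.1% of PD-1+ and 21.5% of PD-1- cells in KO, 12.7% of PD-1+ and 11.3% of PD-1- cells in flox, and 22.1% of B cells in KO and 19.9% in flox. The share in PD-1+ cells of KO was the highest of these 6. Trav16n and Trbv3 lay mostly in male cells of KO (18 of 24 and 12 of 17), where 36.5% of all PD-1+ cells were male. In flox 20 of 23 cells with Trbv20 were female, beside 74.6% of all its PD-1+ cells. Trav7-6, chosen after its values were seen, lay in 18 female cells of 20 in PD-1+ KO cells. It was found in 0 of 433 PD-1- KO cells and 0 of 335 PD-1- flox cells. The limit of 3 counts puts cells with such a UMI at up to 0.693% in KO and 0.896% in flox and does not limit the cells that carry the gene.

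**Figure D5:**
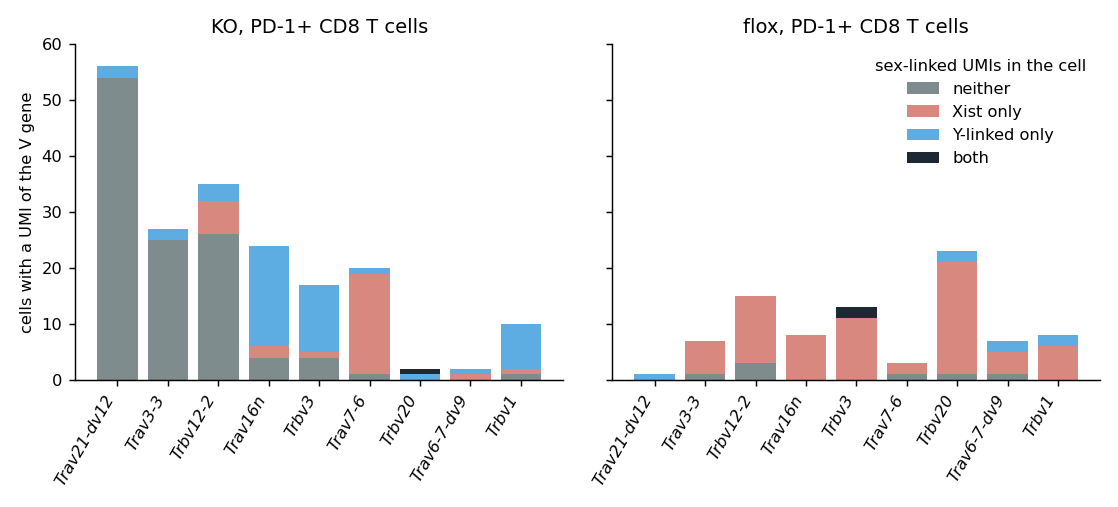
Number of PD-1+ CD8 T cells with a UMI of each V gene (y axis) in KO (left) and flox (right), coloured by the sex-linked UMIs in the same cell. In KO, 54 of the 56 cells with Trav21-dv12 held UMIs of neither Xist nor a Y-linked gene, and Trbv20 was found in 2 cells of KO and 23 of flox.

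The Trav21-dv12 cells had a profile of their own, described here with no test since they were chosen after their values were seen. Against the other 311 PD-1+ cells of KO, 156 of 6886 genes were at least 2-fold higher and 208 at least 2-fold lower. They held more Ctla4, at 1028 CPM against 528 CPM in the others, more Itga1, at 389 CPM against 209 CPM, and more Klrc1, at 489 CPM against 188 CPM. Sema6d, at 205 CPM against 53.1 CPM, Nrn1, at 178 CPM against 44.5 CPM, Fgl2, at 353 CPM against 154 CPM, and Ier5l, at 829 CPM against 422 CPM, were among the genes higher in KO than in flox above. Others of those genes were lower in the Trav21-dv12 cells: Xcl1 at 366 CPM against 571 CPM and Tnf at 46 CPM against 109 CPM. For Hspa1b (0.622 to 1.47) and Cd200r1 (0.803 to 1.71) the interval of the ratio included 1. Gzmk was at 31.3 CPM against 301 CPM in the others, Gzmb at 27.2 CPM against 129.9 CPM and Eomes at 4.18 CPM against 121 CPM. Nkg7 was at 1872 CPM against 2213 CPM and Prf1 at 29.2 CPM against 83.1 CPM. Ifng was at 315 CPM against 266 CPM, where the interval of the ratio, 0.989 to 1.42, includes 1. Fasl was higher, at 282 CPM against 220 CPM (ratio 1.28, 1.05 to 1.54). Klre1 had 0 UMIs in them and 341 in the others. Tox was at 957 CPM against 897 CPM. Pdcd1, which chose the PD-1+ cells, was at 700 CPM against 562 CPM.

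The KO over flox values above were recomputed without these cells, and without all cells that lacked a sex call, both chosen after the data had been seen. The difference in the share of PD-1+ cells was -1.01 points without the Trav21-dv12 cells, against 2.94 in all cells. Without the Trav21-dv12 cells the log2 ratio was 2.56 for Sema6d, 2.45 for Nrn1, 0.86 for Ctla4 and 0.94 for Klrc1. Without the cells that had no sex call it was 2.09 for Sema6d, 2.28 for Nrn1, 0.59 for Ctla4 and 0.49 for Klrc1, against 3.07, 2.99, 1.06 and 1.25 in all cells. The type I interferon median was -1.43 without the cells that had no sex call, against -1.32 in all cells, so the difference was as large without them.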

How the data were processed

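The deposited matrices hold raw UMI counts for each gene and barcode, not normalized. Per the submitters' processing notes, reads were counted with Cell Ranger on mm10; per the file headers, the KO matrix was written by version 7.0.1 and the flox matrix by version 4. Per the labels' protocols, libraries were made with a 10x Genomics 3' kit. The gate above was applied to both matrices, and neither doublets nor free RNA were removed; Scrublet, run as an alternative, called 56 of 3982 KO and 17 of 3418 flox cells, 1 and 0 of them PD-1+.

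UMIs were summed over the cells of a group and scaled to the group's total (CPM). Log2 ratios had 0.5 UMIs added to each sum; ratios have conditional exact binomial, levels exact Poisson and shares Clopper-Pearson intervals, and differences of shares Newcombe intervals. A count of 0 was read as at most 3. Genes needed 50 UMIs in the groups together, and a gene past 2-fold counts as higher or lower. The alternatives of leaving out cells with no sex call and cells with Trav21-dv12, were added after the data had been seen. The text names genes of 17 function lists and 10 marker lists, and up to 12 per direction by the size rule; mitochondrial, ribosomal, haemoglobin, sex-linked, receptor segment and gate genes were left out of that rule. Some genes of the lists and of the rule are not reported here. The cells, lists and rules were chosen with earlier results of these data known. Of 302 list genes 301 are in the files, and 32235 of 32285 features matched GENCODE vM21 (GRCm38). The calculation was tested on simulated counts. Python 3.11.15, numpy 2.4.6, scipy 1.17.1, pandas 2.3.3, statsmodels 0.14.6 and scanpy 1.11.5 were used. Depth, mitochondrial and doublet filters, the gate, thinning, sex, scaling and the added UMIs were varied as alternatives.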

Additional observations from a re-analysis of the deposited data

Results flagged for a closer look

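Some genes went opposite ways in the compared groups, with intervals beyond 1.5-fold in each direction. In each case the difference between the groups was not tested, since each group is 1 library or a class of cells within it.

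Cx3cr1 was 0.292 times as high in PD-1+ as in PD-1- cells of KO and 3.42 times in flox, and accordingly 0.251 times as high in KO as in flox among PD-1+ cells and 2.95 times among PD-1- cells. Gzmb was 0.466 times as high in KO as in flox among PD-1+ cells and 1.92 times among PD-1- cells. For both genes the PD-1+ cells of flox and the PD-1- cells of KO were the higher groups. For Cx3cr1 this turned in male cells, with log2 ratios of -0.61 for PD-1+ over PD-1- in flox and 0.58 for KO over flox in PD-1+ cells, from 4 UMIs in male flox PD-1+ cells.

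The MHC class II genes showed the same cross. H2-Eb1 was 0.103 times as high in PD-1+ as in PD-1- cells of KO and 10.6 times in flox, H2-Aa 0.175 in KO and 14.2 in flox, and Cd74 0.171 in KO and 11.4 in flox. Between KO and flox, H2-Eb1 was at 0.0876 in PD-1+ and 8.99 in PD-1- cells, H2-Aa at 0.105 in PD-1+ and 8.55 in PD-1- cells, and Cd74 at 0.112 in PD-1+ and 7.44 in PD-1- cells. In each of the 2 high groups a few cells held nearly all of it: 5 cells held 91.8% of the H2-Aa UMIs of flox PD-1+ cells and 5 held 91.2% of those of KO PD-1- cells.

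Ccl3 was 2.36 times as high in KO as in flox among PD-1+ cells and 0.228 times among PD-1- cells, where 1 flox cell held 61.5% of the UMIs. Klre1 and Ccl4 split by sex. Klre1 was 3.07 times as high in PD-1+ as in PD-1- cells among female KO cells and 0.452 times among male ones. Ccl4 was 0.527 times as high in PD-1+ as in PD-1- cells among female flox cells and 2.09 times among male ones, and in PD-1- cells 0.373 times as high in KO as in flox among female and 4.64 times among male cells.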

How the results depend on the processing

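The difference in the share of PD-1+ cells, 2.94 points (KO minus flox), was -3.44 with Klrg1 not used, -6.21 in female cells, -2.53 without cells that had no sex call, -1.01 without Trav21-dv12 cells (both chosen after seeing the data) and 8.56 with cells thinned to 2000 UMIs; its sign depends on these choices. The counts of genes past 2-fold moved with the UMI minimum and with depth. For PD-1+ over PD-1- in KO, the count of 692 became 1196 with 20 UMIs per gene, 5682 with no minimum, 244 after thinning, 451 in female and 358 in male cells. In flox, 413 became 826, 3801 and 132 under the same first 3 settings and 250 in male cells. For KO over flox in PD-1+ cells, 291 became 644, 4760 and 121. In PD-1- cells, 141 became 409, 4767 and 65, 93 in female and 252 in male cells. The cause was not tested.

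Gene values were recomputed for a set of named genes, not for all genes measured. Among those past 2-fold, the sign turned in the sex splits and in no other setting run. In female cells the log2 ratio of PD-1+ over PD-1- in KO was -1.35 for Ifit1, -0.75 for Ifit3, -0.52 for Rsad2, -0.19 for Slfn5 and -0.35 for Nr3c2, and that of KO over flox in PD-1+ cells -0.34 for Ctla4 and -0.27 for Klrc1. In male cells PD-1+ over PD-1- in flox was -0.50 for Cd200r1, 0.27 for Dapl1, -0.61 for Cx3cr1 and -0.36 for Rgs16. KO over flox in male PD-1+ cells was -0.51 for Itgae, 0.58 for Cx3cr1 and -1.19 for Hspa1b, and in male PD-1- cells 1.23 for Lag3 and 4.42 for Ccl3. Only 30 PD-1+ and 55 PD-1- cells of flox were male, which limits these values; the cause of the turns was not tested. Of 6930 gene values recomputed, 16 turned and 1024 more moved outside the interval of the main value. Most moves came in male cells (249), in female cells (182), after thinning (176) and with the mean of each cell's CPM (106). Of 1156 list medians recomputed, 25 moved by more than 1.5-fold and none past 2-fold turned; the inhibitory receptor median in flox, 0.77, was -0.26 in male cells. No paired analysis was possible because each group has 1 library.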

Other observations

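CD4 T cells outside the gate also held Pdcd1, in 22.7% of 278 cells in KO and 39.9% of 338 in flox, a difference of -17.3 (-24.3 to -9.96) percentage points. NK cells held it in 0.741% of 270 cells in KO and 1.49% of 202 in flox.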
